A study of Homo sapiens with 4 samples.

Results

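The genes described here are 48 proliferation genes of S phase and mitosis. They are named genes with known roles in DNA replication and cell division, chosen with earlier results of these data known. They were found on the arrays by matching the RefSeq accession of each probe to a gene, which gave 53 probes for 47 of the 48 genes. UBE2C, a ubiquitin-conjugating enzyme of the anaphase-promoting complex, had no probe matched by accession and is not analysed here. The 47 genes are set against 12159 genes with a probe that passed the signal filter.

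Total RNA was profiled on 4 arrays, 1 per condition. SkBr3 and BT474 are breast cancer cell lines with amplified HER2, a receptor tyrosine kinase. Parental SkBr3 and parental BT474 cells were grown with vehicle, and 1 resistant clone of each line was raised in increasing lapatinib, which blocks the kinase activity of EGFR and HER2, up to 1 μM. The sample labels number the SkBr3 clone 3 and the BT474 clone 6, whereas the study's text and file names give the opposite numbers, so the clones are called here by their cell line. Each clone stands for itself only, and in both pairs growth in lapatinib and descent from a single clone cannot be told apart.

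Cells that divide copy their DNA in S phase and separate the copies in mitosis. Replication origins are licensed by CDC6, CDT1 and the MCM helicase, which is then activated by CDC45 and the GINS complex. These genes are classic targets of E2F factors. The genes of mitosis peak later, and many of them are controlled through promoter elements called CHR and CCAAT by the MuvB complex with B-MYB and FOXM1. Because HER2 signaling drives the division of HER2-positive cells, such genes are commonly used as a readout of proliferation in these lines.

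A level is the log2 processed signal of a probe minus the 75th percentile of its array, so that 0 is the 75th percentile of all probes. A change is the level in a clone minus that in its own parental cells, and a change of 1 is 2-fold. Where several probes of a gene were kept, the brightest on average stood for it. Signals of all 47 genes exceeded background clearly on each of the 4 arrays, and thus no member depended on the filter through a single array. The spread within an array is known for 7 members that were spotted 10 times, namely BIRC5, CCNA2, CDK1, CENPE, E2F1, KIF20A and PCNA. The SD of their log2 signals among the 10 spots was 0.03 to 0.09. Different probes of a gene gave log2 fold changes that differed by a median of 0.28 in both cell lines, so smaller changes are within the spread between probes. The upper decile of this spread was 0.998 in SkBr3 cells and 0.862 in BT474 cells. A change above the median spread can therefore still be within the disagreement between probes of a gene. With 1 array per condition there is no spread between cultures and no test within a cell line.

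The arrays differed in brightness, with 75th percentiles of 1115 in parental SkBr3, 2074 in the SkBr3 clone, 1158 in parental BT474 and 1681 in the BT474 clone. The SkBr3 clone was on a slide of its own and the other 3 arrays shared a slide, so that slide and resistance cannot be told apart in SkBr3. The BT474 pair lies within 1 slide. Of 7 markers of HER2-positive luminal cells, 6 were well above background on both SkBr3 arrays and 7 on both BT474 arrays. All 7 had a change below 0 in both clones, with medians of -0.82 in the SkBr3 clone, where ERBB2 was at -1.90 and GRB7 at -1.19, and -0.63 in the BT474 clone. The marker not above background in SkBr3 was CDH1, the gene of E-cadherin, with signals of 11.9 and 4.66 in SkBr3 cells, and its change still enters the count and median there. ERBB2, KRT8, KRT18 and KRT19 had parental signals of at least 50000 in both lines. The medians of all genes in that range were -0.41 in the SkBr3 clone and -0.37 in the BT474 clone. KRT8 and KRT18 were at -0.44 and -0.12 in the SkBr3 clone. The part of brightness in the luminal values was not tested. Of 5 fibroblast markers with a probe, COL3A1 and PDGFRB were well above background in the SkBr3 clone, at 347 and 64.8, and none on the other arrays. Of 4 leukocyte markers, CD3E, CD68 and CD14 were well above background on all 4 arrays and PTPRC on none. Their summed signal was 470 and 1041 in parental SkBr3 and its clone and 177 and 205 in parental BT474 and its clone, and the median change of the 3 was 0.67 in the SkBr3 clone and -0.45 in the BT474 clone. The summed signal of 3 endothelial markers was 181 and 1395 in parental SkBr3 and its clone and 905 and 658 in parental BT474 and its clone. In BT474 cells VWF went from 892 to 594, while PECAM1 went from 3.32 to 55.2 and CDH5 was not well above background. In SkBr3 cells all 3 were higher in the clone, PECAM1 going from 3.43 to 160. PECAM1 was well above background in both clones and in neither parent. The part of these markers in the results was not tested. The scanner read 23 members from its low-gain scan on the SkBr3 clone array, among them CDC45, CDT1, MCM5 and CDC20, and 7 to 9 on the other arrays, and the part of this was not tested either.

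Across the members, the clones differed in direction. In the SkBr3 clone, 8 of 47 members (17.0%) were at least 2-fold higher and none was at least 2-fold lower. The shares among all genes were 14.1% for higher and 14.4% for lower, so the share of higher members was near the background. All genes include more dim ones, with 5733 of 12159 under a parental SkBr3 signal of 1000, against 5 of 47 members. In BT474 cells these were 5586 genes and 7 members. The part of dim genes in the 2-fold shares of all genes was not tested. In the BT474 clone, none of the members was at least 2-fold higher, against 9.20% of all genes, and 2 of 47 (4.26%) were at least 2-fold lower, against 5.40%. The 2 were 5 under median scaling and 1 under each of 3 other normalizations. The median log2 fold change of the members was 0.31 in the SkBr3 clone and -0.32 in the BT474 clone, where the medians of all genes were -0.06 and -0.09. These medians also move with brightness. In BT474 cells, the 17 members with a parental signal of 10000 to 50000 had a median of -0.27, and the 1408 genes in that range one of -0.24. At 1000 to 10000, the medians were -0.33 for 22 members and -0.12 for 4819 genes. In SkBr3 cells the medians at 10000 to 50000 were 0.39 for 19 members and -0.08 for 1443 genes. The part of brightness in the BT474 values was not tested. Most member changes were smaller than 2-fold. In the SkBr3 clone 33 of 47 members (70.2%) were above 0, against 46.8% of all genes. In the BT474 clone 32 of 47 (68.1%) were below 0, against 56.9% of all genes. In these RNA samples, fewer dividing cells and less RNA per dividing cell cannot be told apart.

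The 48 genes were grouped by role, and the roles were then joined into 16 S phase genes and 27 mitosis genes, leaving 3 transcription factors and 2 general markers. The roles were joined after the values were seen, so the shares below describe these groups and do not test them. In the BT474 clone, 25 of 26 measured mitosis genes (96.2%) had a change below 0, against 56.9% of all genes, with a median of -0.52. In the same clone, 12 of 16 S phase genes had a change above 0, against 43.1% of all genes, with a median of 0.13. This count depends on the scaling, since the sign of 7 of the 16 varied with it. In the SkBr3 clone, 19 of 26 mitosis genes (73.1%) and 10 of 16 S phase genes (62.5%) had a change above 0, against 46.8% of all genes, with medians of 0.28 and 0.42. Hence 18 of 26 mitosis genes (69.2%) were higher in the SkBr3 clone and lower in the BT474 clone, a combination seen in 27.6% of all genes. The reverse combination was seen in none of the mitosis genes and 4 of 16 S phase genes (25.0%), against 23.8% of all genes. These counts take signs alone. Some of the 18 mitosis genes had a change within the median spread between probes. Among them were BUB1B, MAD2L1 and BIRC5 in the SkBr3 clone and CCNA2 and CKS2 in the BT474 clone. Except for BIRC5, the signs of these changes varied with the scaling.

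**Figure D1:**
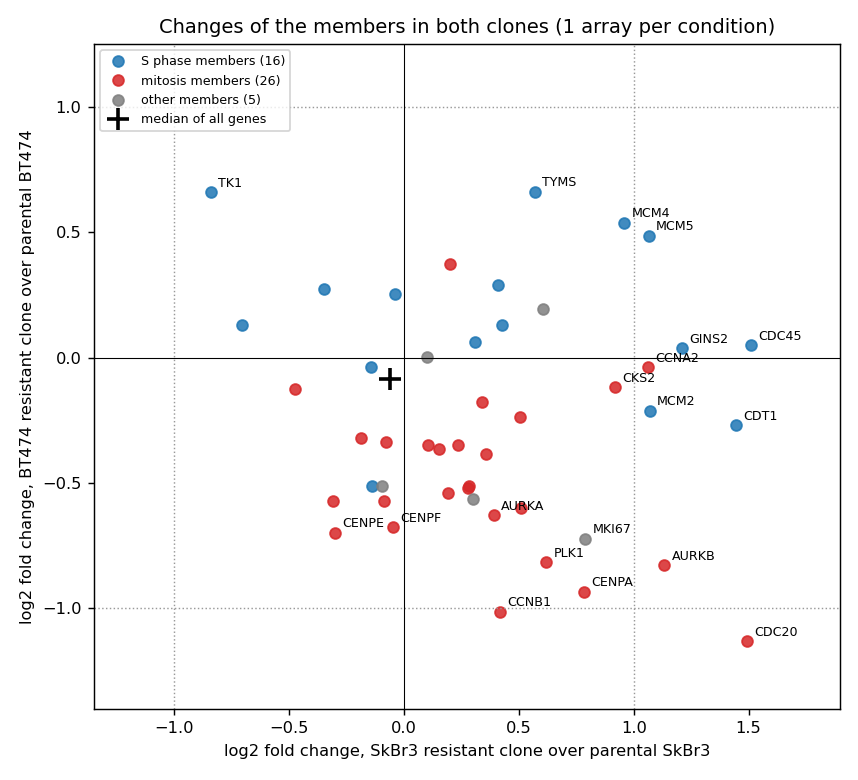
Log2 fold change of each of the 47 members in the SkBr3 clone (x axis) and the BT474 clone (y axis), each over its own parental cells, with dotted lines at 2-fold and a cross at the median of all genes. Mitosis genes lie below 0 on the y axis except CDK1, while CDC20 alone is past 2-fold in opposite directions.

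The position of the median depends on how the arrays are scaled. When arrays were scaled by their median in place of the 75th percentile, the median of all genes moved to 0.10 in the SkBr3 clone and -0.29 in the BT474 clone. The S phase median in the BT474 clone then became -0.08 in place of 0.13. The difference of the S phase and mitosis medians from that of all genes, 0.22 and -0.43 there, cannot change when 1 constant per array is replaced by another. It was 0.30 and -0.34 under quantile normalization, and 0.35 and -0.32 with normexp background correction before it. In the BT474 clone, 23 of the 26 mitosis genes were below 0 under each scaling tried, 1 was above 0 under each, and the sign of the other 2 varied. Of the 16 S phase genes there, 7 were above 0 under each scaling, 2 were below 0 and 7 varied in sign. In the SkBr3 clone, 17 of the 26 mitosis genes were above 0 under each, 4 were below 0 and 5 varied. The 16 S phase genes there gave 10, 3 and 3 in the same order. The share of all genes that kept their sign under each scaling was not computed, so these counts describe the members only.

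A joint limma fit of resistance, blocked by cell line, treated the SkBr3 and BT474 pairs as replicates and left 1 residual degree of freedom. After Benjamini-Hochberg adjustment it called 0 of 25927 probes (0.00%) at 0.05, and no member. At an unadjusted p below 0.05 it found 3.47% of the probes, 2.45% higher and 1.02% lower in the clones, and again none of the 47 members. The lowest unadjusted limma p among the members was 0.165 for MCM5, with a mean log2 fold change of 0.78 ± 0.44 (SE) that was positive in both clones. The lowest adjusted limma p of the members was 0.999982, and it lay between 0.763001 and 0.999992 under the alternatives. This fit looks for changes shared by the cell lines, and in 11 of 47 members (23.4%) both changes were above 0 and in 10 (21.3%) both were below 0, against 19.3% and 29.4% of all genes.

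**Figure D2:**
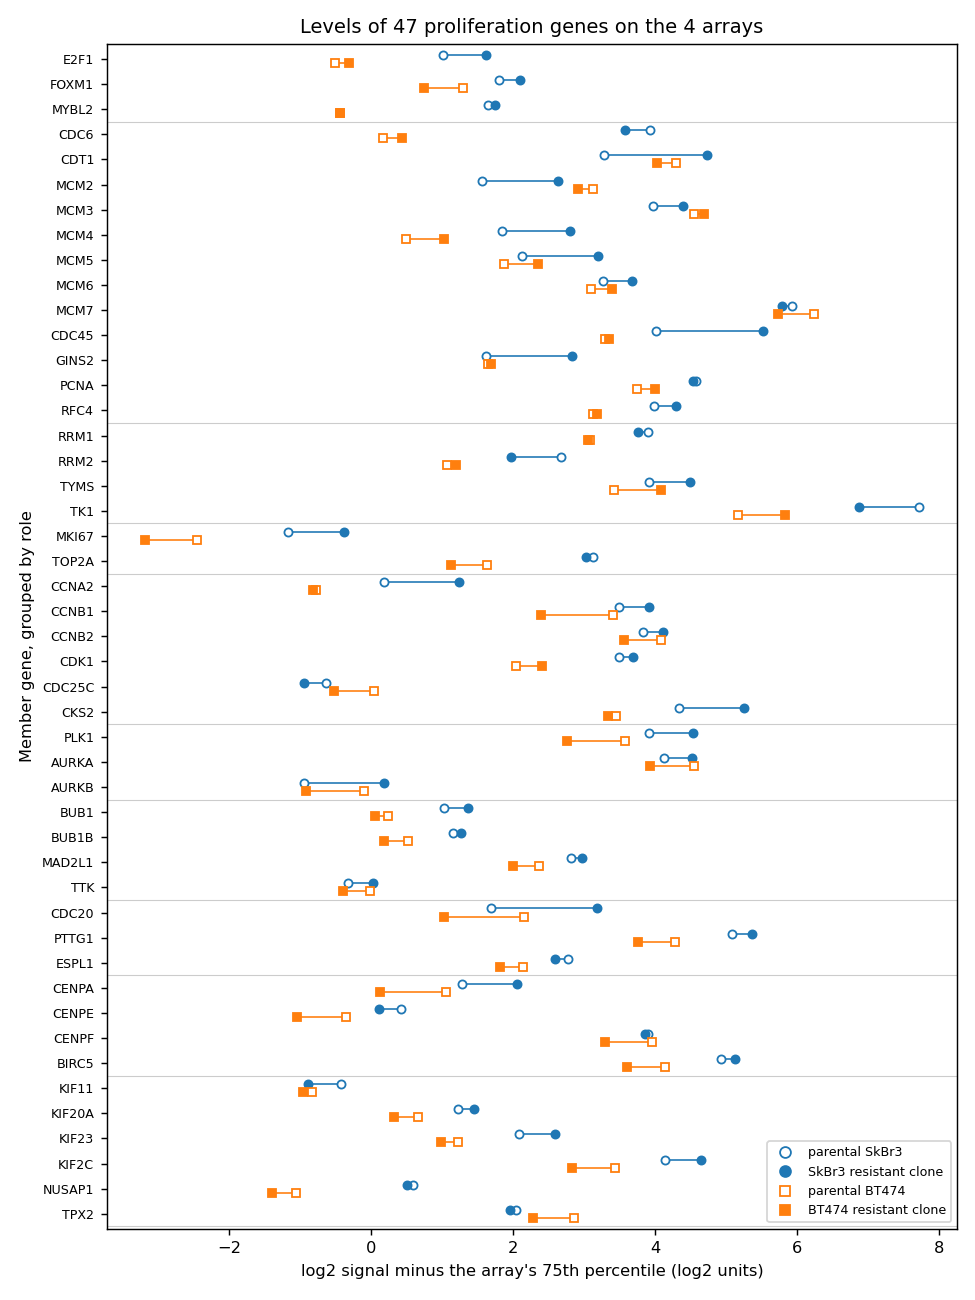
Level of each member on the 4 arrays, as log2 signal minus the 75th percentile of the array, grouped by role, with a line joining each clone (filled) to its parental cells (open). Levels can be compared along a row but not between rows, since probes differ in brightness, and in the BT474 pair 25 of 26 mitosis genes lie lower in the clone, while in the SkBr3 pair 19 of 26 lie higher.

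The licensing and replication fork genes contained most of the members that were at least 2-fold higher in the SkBr3 clone. Of these 12 genes, 5 (41.7%) were at least 2-fold higher there, against 14.1% of all genes, and 9 were above 0, against 46.8%, with a median log2 fold change of 0.69. CDC45, a subunit of the active replicative helicase, had levels of 4.0 in SkBr3, 5.52 in the SkBr3 clone, 3.30 in BT474 and 3.35 in the BT474 clone. It was thus 2.85-fold higher in the SkBr3 clone and nearly level in BT474 cells, where its change was 0.05. CDT1, the licensing factor that loads the MCM helicase, had levels of 3.28 and 4.72 in SkBr3 and its clone and 4.30 and 4.03 in BT474 and its clone. Its change was 1.45 in the SkBr3 clone and -0.27 in the BT474 clone, and its other probe gave 1.44 and -0.13. GINS2, a subunit of the GINS complex, went from 1.62 to 2.83 in SkBr3 cells, a 2.31-fold higher level, and from 1.64 to 1.68 in BT474 cells.

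The promoters of CDC45, CDT1 and MCM2 are shown because these genes were among the S phase genes more than 2-fold higher in the SkBr3 clone and not in the BT474 clone. The sequences are from RefSeq on GRCh38.p14, from 150 bases before to 20 bases after the start, all on the plus strand, at chr22:19479770-19479939, chr16:88803639-88803808 and chr3:127598261-127598430. Capitals mark E2F letters (GCGGGAA or GCGCGAA or GCGCCAA), CHR letters (TTTGAA or TTTAAA) and CCAAT boxes (CCAAT) on either strand.
CDC45: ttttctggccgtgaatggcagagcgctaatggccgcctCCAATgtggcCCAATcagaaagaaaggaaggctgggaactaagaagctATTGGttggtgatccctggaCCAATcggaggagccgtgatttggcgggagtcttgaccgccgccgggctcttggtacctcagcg
CDT1: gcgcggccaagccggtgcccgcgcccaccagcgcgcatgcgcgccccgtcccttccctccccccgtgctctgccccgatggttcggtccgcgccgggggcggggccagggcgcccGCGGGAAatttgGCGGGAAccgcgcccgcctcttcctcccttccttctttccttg
MCM2: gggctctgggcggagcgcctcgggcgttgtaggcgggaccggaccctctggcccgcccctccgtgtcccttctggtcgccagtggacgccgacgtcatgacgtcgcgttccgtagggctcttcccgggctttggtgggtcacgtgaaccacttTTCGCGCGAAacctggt
CDT1 has a pair of E2F matches within 35 bases before the start, and MCM2 has a match on each strand that overlap just after it. CDC45 has 4 CCAAT boxes and none of the E2F letters searched in this window. Its stretch gcgggag differs from GCGGGAA in the last base only and was not counted.

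The MCM genes encode the subunits of the helicase ring, and their values differed. In the SkBr3 clone MCM2 went from 1.56 to 2.63 (2.10-fold higher) and MCM5 from 2.12 to 3.19 (2.09-fold higher). MCM4 was just under 2-fold, at 1.85 and 2.81. MCM3 and MCM6 had smaller changes of 0.43 and 0.41, and MCM7 had one of -0.14, within the spread between probes. In the BT474 clone MCM4 and MCM5 had changes of 0.54 and 0.49, from 0.49 to 1.03 and from 1.87 to 2.35. MCM2 was at 3.12 and 2.91 in BT474 and its clone, and MCM7 had a change of -0.51 that was -0.17 under quantile normalization. MCM4 and MCM5 were therefore higher in both clones, and MCM5 had the lowest limma p of the members.

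The remaining genes of this role had small changes in both clones. PCNA, the sliding clamp of the replication fork, had levels of 4.57 in SkBr3, 4.54 in the SkBr3 clone, 3.75 in BT474 and 4.0 in the BT474 clone. RFC4, a subunit of the clamp loader, had changes of 0.31 and 0.06. CDC6, which recruits the MCM ring to origins, went from 3.92 to 3.57 in SkBr3 cells and from 0.17 to 0.44 in BT474 cells. The change of CDC6 in either clone was far smaller than the difference between the parental lines, where it was 3.75 higher in SkBr3 on the log2 scale.

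Of the 4 genes of nucleotide synthesis, TK1 had opposite signs in the clones under each scaling tried. TYMS had the same sign in both, as did RRM1 in the reported values. TK1, the thymidine kinase of the salvage pathway, went from 7.71 to 6.87 in SkBr3 cells, the lowest change of the members there at -0.84, and from 5.17 to 5.83 in BT474 cells, a change of 0.66. TK1 had signals of 233734 and 242525 on the SkBr3 arrays, where the brightest spots reached 355846 and 367219. Among the 376 genes with a parental SkBr3 signal of at least 50000, the median change was -0.41, and with quantile normalization the TK1 change was -0.34. It was -0.26 with normexp background correction before it, within the median spread between probes. The part of brightness in the TK1 value was not tested. RRM2, the regulated subunit of ribonucleotide reductase, went from 2.67 to 1.97 in SkBr3 cells and from 1.07 to 1.20 in BT474 cells, where its sign varied with the scaling. Its other probe gave a change of -0.24 in the SkBr3 clone, so the probes differed by more than the median spread. RRM1, the large subunit, had changes of -0.15 and -0.04. TYMS, thymidylate synthase, went from 3.92 to 4.49 in SkBr3 cells and from 3.43 to 4.09 in BT474 cells, and had the highest change of the members in the BT474 clone, 1.58-fold.

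None of the 3 transcription factors changed by 2-fold in either clone. E2F1, which drives S phase genes, had levels of 1.01 and 1.62 in SkBr3 and its clone and -0.50 and -0.31 in BT474 and its clone. Its change of 0.61 in the SkBr3 clone exceeded the median spread between probes but not the upper decile. That of 0.19 in the BT474 clone did not exceed the median spread. FOXM1, which drives mitotic genes, went from 1.80 to 2.10 in SkBr3 cells and from 1.30 to 0.74 in BT474 cells. MYBL2, the gene of B-MYB, had changes of 0.10 and 0.00, whose signs varied with the scaling in both clones. FOXM1 thus had the direction of most mitosis genes in each clone, with changes of 0.30 in the SkBr3 clone and -0.56 in the BT474 clone. That in the SkBr3 clone was barely above the median spread between probes.

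Of the general markers, MKI67, the gene of the Ki-67 antigen, had levels of -1.17 in SkBr3, -0.38 in the SkBr3 clone, -2.46 in BT474 and -3.18 in the BT474 clone. It was 1.73-fold higher in the SkBr3 clone and 1.65-fold lower in the BT474 clone. TOP2A, the topoisomerase that untangles sister chromatids, had levels of 3.13 and 3.03 in SkBr3 and its clone and 1.64 and 1.13 in BT474 and its clone. Both markers were lower in the BT474 clone than in its parent, while in the SkBr3 clone the change of TOP2A was within the spread between probes.

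**Figure D3:**
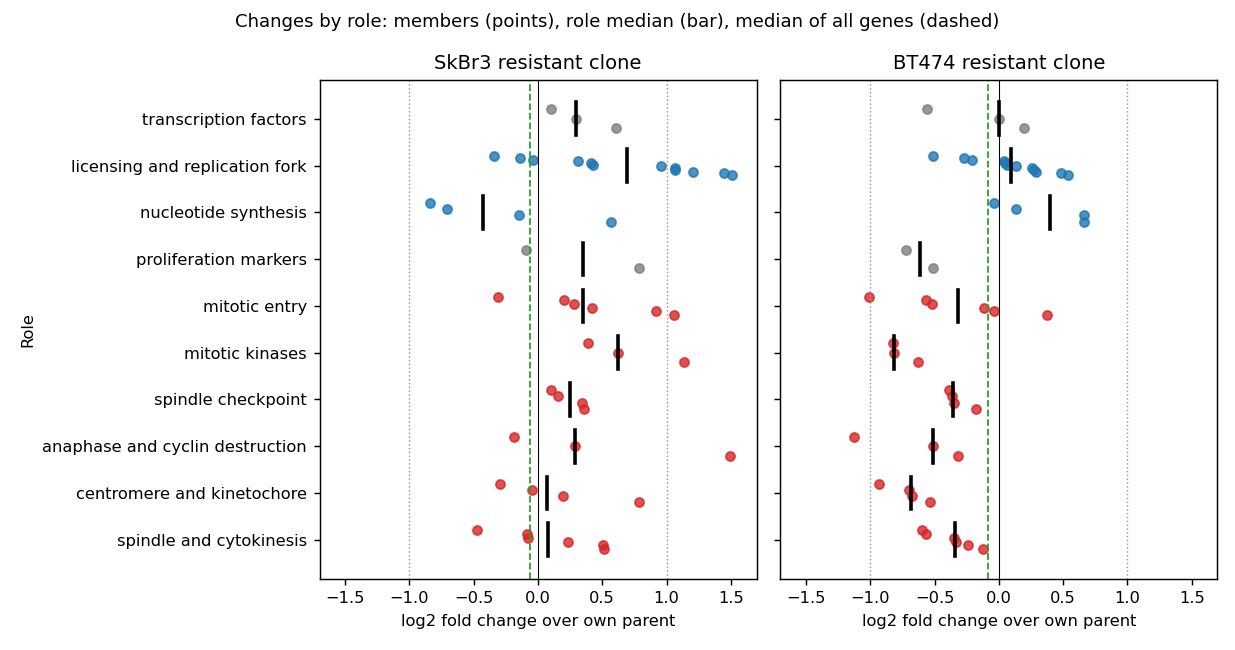
Log2 fold change of each member over its own parental cells, by role, in the SkBr3 clone (left) and the BT474 clone (right), with a bar at the median of the role and a dashed line at the median of all genes. All role medians of mitosis lie below the dashed line in the BT474 clone and above it in the SkBr3 clone.

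Among the genes of mitotic entry, the cyclins did not move as a block. CCNB1, the gene of cyclin B1 that activates CDK1 at mitosis, had levels of 3.49 in SkBr3, 3.91 in the SkBr3 clone, 3.41 in BT474 and 2.39 in the BT474 clone. It was 2.02-fold lower in the BT474 clone, just past 2-fold, and 1.34-fold higher in the SkBr3 clone. Under the 3 normalizations that took CCNB1 out of the 2-fold count, its change in the BT474 clone was -0.94 to -0.89. CCNB2 had changes of 0.28 and -0.52. CCNA2, the gene of cyclin A2 that acts from S phase on, went from 0.18 to 1.24 in SkBr3 cells (2.09-fold higher) and from -0.78 to -0.82 in BT474 cells. CDK1, the mitotic kinase itself, was the exception among the mitosis genes, with 3.49 and 3.69 in SkBr3 and its clone and 2.04 and 2.41 in BT474 and its clone. CKS2, a CDK-binding subunit, had changes of 0.92 and -0.12. CDC25C, the phosphatase that activates CDK1, was lower in both clones, from -0.64 to -0.95 and from 0.05 to -0.53.

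The mitotic kinases were higher in the SkBr3 clone and lower in the BT474 clone. AURKB, the kinase of the chromosomal passenger complex, had levels of -0.95 in SkBr3, 0.18 in the SkBr3 clone, -0.09 in BT474 and -0.92 in the BT474 clone. PLK1, which acts in centrosome maturation and spindle assembly, went from 3.91 to 4.53 in SkBr3 cells and from 3.58 to 2.76 in BT474 cells. The other PLK1 probe gave 1.13 and -0.97, with the same signs. AURKA, the kinase of the spindle poles, had changes of 0.39 and -0.63. All 3 kinases thus differed from the parental cells by more than the median spread between probes in both clones. In the BT474 clone the probes that stood for them stayed under the upper decile, while the dimmer PLK1 probe, at -0.97, passed it. In the SkBr3 clone AURKB and the dimmer PLK1 probe were past 2-fold.

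CDC20, the activator of the anaphase-promoting complex, was the only member at least 2-fold from its parental level in both clones, and the directions were opposite. Its levels were 1.68 in SkBr3, 3.18 in the SkBr3 clone, 2.15 in BT474 and 1.02 in the BT474 clone. It was 2.82-fold higher in the SkBr3 clone and 2.19-fold lower in the BT474 clone, a combination found in 1.26% of all genes. No other pairing of 2-fold changes occurred among the members, whether up in both clones, down in both, or down in SkBr3 and up in BT474, against 3.07%, 1.45% and 2.32% of all genes. PTTG1, the gene of the separase inhibitor securin, had changes of 0.28 and -0.51, and ESPL1, the gene of separase, of -0.19 and -0.32. A second ESPL1 probe stayed under a signal of 100 on all arrays and was not used.

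The promoters of CDC20 and CCNB1 are shown because these genes were the 2 members at least 2-fold lower in the BT474 clone. They are from the same source and window, on the plus strand at chr1:43358831-43359000 and chr5:69167000-69167169, with the same letters in capitals.
CDC20: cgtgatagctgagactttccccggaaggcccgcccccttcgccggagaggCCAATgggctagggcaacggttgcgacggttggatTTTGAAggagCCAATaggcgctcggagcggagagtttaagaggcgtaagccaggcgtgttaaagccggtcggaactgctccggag
CCNB1: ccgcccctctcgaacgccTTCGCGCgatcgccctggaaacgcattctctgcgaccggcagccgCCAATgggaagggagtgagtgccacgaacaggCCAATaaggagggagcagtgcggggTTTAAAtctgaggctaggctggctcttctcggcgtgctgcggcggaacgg
Both have CHR letters and 2 CCAAT boxes in this stretch. CCNB1 also has 1 match to the E2F letters.

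The 4 genes of the spindle checkpoint and the 4 of the centromere and kinetochore were all below 0 in the BT474 clone, with medians of -0.36 and -0.69. The checkpoint kinases BUB1, BUB1B and TTK and the checkpoint protein gene MAD2L1 had changes of -0.39 to -0.18 there and of 0.10 to 0.36 in the SkBr3 clone. CENPA, the histone variant that marks centromeres, went from 1.27 to 2.06 in SkBr3 cells and from 1.06 to 0.13 in BT474 cells, 1.91-fold lower. CENPE, a kinetochore motor, had changes of -0.30 and -0.70, and CENPF, a kinetochore protein, of -0.05 and -0.68. The other CENPF probe gave 0.08 and -0.65. BIRC5, the gene of survivin in the chromosomal passenger complex, had changes of 0.19 and -0.54. All 4 centromere and kinetochore genes were thus lower in the BT474 clone by more than the median spread between probes. Only CENPA also passed the upper decile there. CENPA alone exceeded the median spread upward in the SkBr3 clone, but not the upper decile.

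The 6 genes of the spindle and of cytokinesis were all below 0 in the BT474 clone, between -0.60 and -0.13, and between -0.47 and 0.51 in the SkBr3 clone. KIF2C, a kinesin that removes tubulin at kinetochores, had changes of 0.51 and -0.60, and KIF23, a kinesin of the central spindle, of 0.51 and -0.24. TPX2, which activates AURKA on the spindle, had changes of -0.09 and -0.57. KIF20A, a kinesin of cytokinesis, had 0.24 and -0.35, and NUSAP1, a microtubule-binding protein of the spindle, had -0.08 and -0.34. KIF11, the kinesin that drives the spindle poles apart, went from -0.42 to -0.89 in SkBr3 cells and from -0.83 to -0.96 in BT474 cells. The probes of KIF11 differed, with the other one giving -0.02 and -0.78, so which clone had the lower change depends on the probe.

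The values next to the 2-fold limit show how close many members lay to it. In the SkBr3 clone, CCNA2, MCM5 and MCM2 were just inside at 1.06, 1.06 and 1.07, and MCM4, CKS2 and MKI67 just outside at 0.96, 0.92 and 0.79. In the BT474 clone CCNB1 was just inside at -1.01, and CENPA, AURKB and PLK1 were just outside at -0.93, -0.83 and -0.82.

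The promoters of the S phase and mitosis genes differed in the letters they held. In the RefSeq table, 40 of the 48 members had a promoter of 300 bases, from 250 before to 50 after the start. CHR letters on either strand were present in 18 of 22 mitosis promoters (81.8%), 3 of 14 S phase promoters (21.4%) and 15.7% of 9850 promoters of genes with a kept probe. E2F letters were present in 6 of 22 mitosis promoters (27.3%), 11 of 14 S phase promoters (78.6%) and 18% of the 9850. CCAAT boxes were present in 81.8%, 64.3% and 37.1%, in the same order. CHR letters and a CCAAT box occurred together in 15 of the 22 mitosis promoters (68.2%) and in 6.53% of the 9850. The CHR letters TTTAAA read the same on both strands, and such short runs also occur by base composition, so a match is a description of the letters only.

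**Figure D4:**
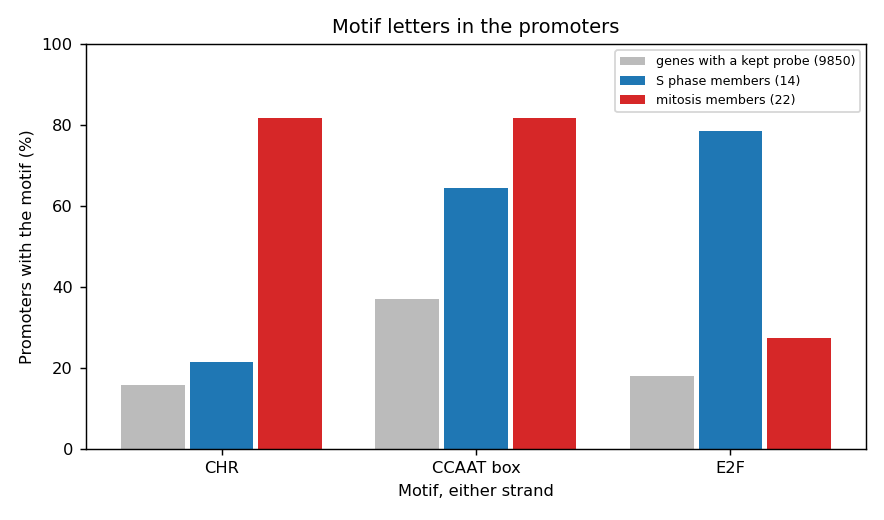
Percent of promoters, from 250 bases before to 50 after the start, that hold the letters of each motif on either strand, for genes with a kept probe (gray), S phase members (blue) and mitosis members (red). CHR letters are most frequent in the mitosis members and E2F letters in the S phase members.

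Other cell cycle genes were taken from 2 lists of genes outside the 48, also chosen with earlier results of these data known. Of 48 measured genes of G2 and M phase, 40 (83.3%) were below 0 in the BT474 clone, against 56.9% of all genes, and 29 (60.4%) were above 0 in the SkBr3 clone and below 0 in the BT474 clone, against 27.6%. Their medians were 0.37 in the SkBr3 clone and -0.26 in the BT474 clone. In the SkBr3 clone 5 of them (10.4%) were at least 2-fold higher and 1 (2.08%) lower, against 14.1% and 14.4% of all genes. The counts in the BT474 clone were 0 higher and 1 (2.08%) lower, against 9.20% and 5.40%, so these counts lay under the background. The measured G2 and M phase genes were well above background on each array, which was not required of all genes. The counts above or below 0 take signs alone and include changes within the median spread between probes. TACC3, a spindle protein, had changes of 2.37 and -0.86, TRIP13, a checkpoint ATPase, of 1.82 and -0.13, and CENPM, a centromere protein, of 1.24 and -0.43. HMMR, a spindle-associated protein, had changes of 0.82 and -1.32. KIF15, a spindle kinesin, was lower in both clones, at -1.29 and -0.93.

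Of 43 other measured S phase genes, 25 (58.1%) were above 0 in the SkBr3 clone and 23 (53.5%) in the BT474 clone, against 46.8% and 43.1% of all genes. Their medians of 0.10 and 0.01 compare with 0.69 and 0.10 for the 12 licensing and fork genes above, a difference that was not tested. SLBP, which binds histone mRNAs, had changes of 1.67 and 0.36. GINS4, a partner of GINS2 in the GINS complex, had changes of -0.81 and 1.78, in the opposite direction to GINS2 in the SkBr3 clone. CLSPN, a fork protein, had a change of 1.22 in the BT474 clone from signals of 22.4 and 75.8, both under the filter of 100, which it passed through the SkBr3 clone array alone. CDC7, the kinase that fires origins, had a change of 1.16 there.

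Comparison of the cell lines put these changes in context. Between the parental lines, 34 of 47 members (72.3%) were higher in SkBr3, against 51.2% of all genes, 10 at least 2-fold, or 21.3% against 19.1% of all genes, and 2 were at least 2-fold lower, or 4.26% against 19.7%. Between the clones, 43 of 47 members (91.5%) were higher in the SkBr3 clone, against 52.8% of all genes, 28 at least 2-fold, or 59.6% against 24.2% of all genes, and none was at least 2-fold lower, against 23.6%. These clone arrays were on different slides, and the part of the slide was not tested. MYBL2 was 2.08 higher in parental SkBr3 than in parental BT474 on the log2 scale and TK1 2.54 higher, while MCM2 and CDT1 were lower in parental SkBr3, with differences of -1.57 and -1.02.

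**Figure D5:**
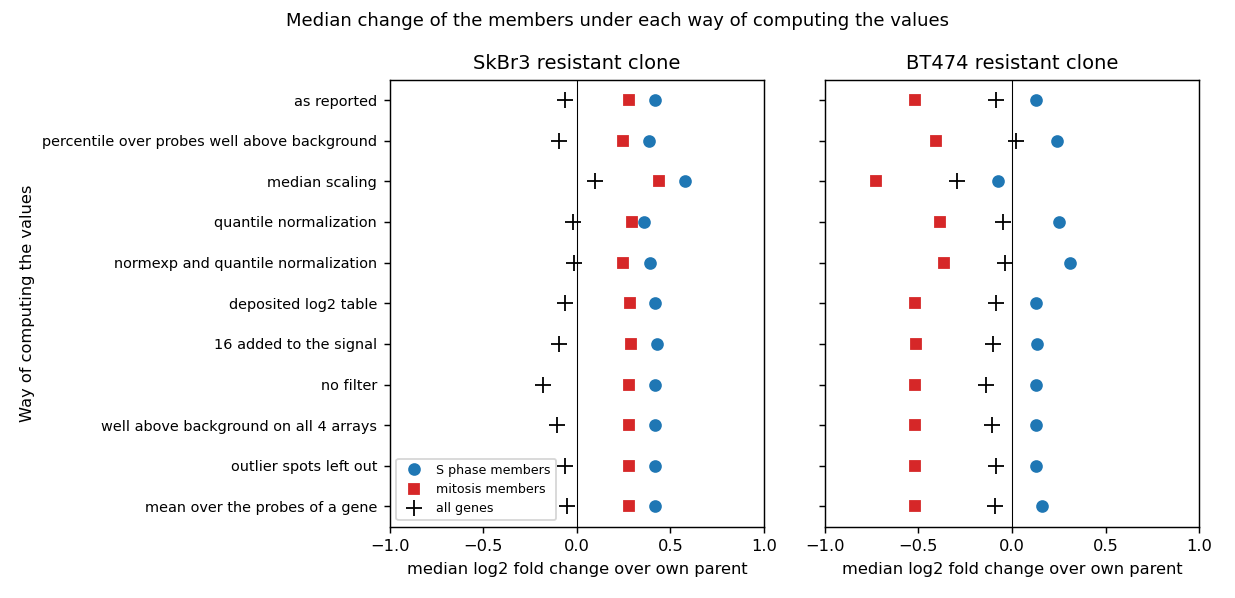
Median log2 fold change of the S phase members (circles), the mitosis members (squares) and all genes (crosses) in the SkBr3 clone (left) and the BT474 clone (right) for the reported values and each other way of computing them. In the BT474 clone the mitosis median lies between -0.72 and -0.36 and below that of all genes throughout.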

How the data were processed

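The authors deposited, for each spot of an Agilent Human Whole Genome 4 × 44 K array, a processed intensity that Feature Extraction 10.1.1.1 had corrected for background per the file headers, with flags and median pixel intensities. A log2 table from the authors was deposited as well. Its differences between clone and parental arrays were shifted from the ones computed here by a median of 0.0007 in SkBr3 and -0.0006 in BT474. Beyond this shift, the median departure was 2.9e-07 in both lines. The largest departure of a probe was 0.62 in SkBr3 and 0.38 in BT474. The methods name an earlier software version and LOWESS, whereas the headers give a single Cy3 channel. Depth does not apply to arrays, and their number limits the precision.

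Repeated spots were averaged as log2 signals and the 75th percentile over 41000 probes was subtracted. Probes with a signal of at least 100 on at least 1 array were kept (25927). Probes were named through RefSeq accessions on GRCh38.p14, which named 23680. A probe counted as well above background if the scanner software marked 50% or more of its spots that way. Genes were counted at 2-fold, and limma 3.58.1 in R 4.3.3 tested resistance with cell line as a block and Benjamini-Hochberg adjustment. Motifs were searched in RefSeq promoters with Python 3.11.15.

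The members, roles, related lists, motifs and the rule for named genes (all members; levels for 8 fixed genes, the 5 highest and 5 lowest per clone, those changed in both clones and those whose probes disagree; up to 3 related genes at each end) were chosen with earlier results of these data known, and the roles were joined into S phase and mitosis after the values were seen. Reference gene changes had medians of -0.38 and -0.07 in the SkBr3 and BT474 clones. Scripts were tested on simulated arrays. Alternatives covered scaling, background correction, pseudocount (16), filters, outlier spots, a 3-fold limit, averaged probes, the deposited table and the block.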

Additional observations from a re-analysis of the deposited data

Results flagged for a closer look

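CDC20 drew attention because it passed 2-fold in both clones in opposite directions, with log2 fold changes of 1.50 in the SkBr3 clone and -1.13 in the BT474 clone. The difference was not tested, since there is 1 array per condition, and the SkBr3 clone was on another slide than its parental cells.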

How the results depend on the processing

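The limma fit, with cell line as a block, already sets each clone against its parental cells. No further pairing was possible, because the groups share a single replicate number with 1 array each. The S phase median in the BT474 clone turned from 0.13 to -0.0773 under median scaling, by which the median of all genes there moved from -0.09 to -0.29. The members at least 2-fold lower in the BT474 clone, 2 as reported, were 5 under median scaling, 1 with the percentile over probes well above background, with quantile normalization and with normexp correction before it, and 0 at 3-fold. The members at least 2-fold higher in the SkBr3 clone, 8 as reported, were 5 with normexp correction and 0 at 3-fold. Members with opposite 2-fold changes, 1 as reported, were 2 under median scaling and 0 at 3-fold. Of the other 127 summary values under the alternatives, each kept its direction and stayed within 1.5 times (counts) or within the median spread between probes (medians), and limma called 0 members, also without the block and with the slide as a block. Among single members, 6 values moved by more than that spread, 934 did not and no 2-fold change turned its direction. The number of arrays limits all values, as no spread between cultures is known.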
